A study of Mus musculus with 9 samples.

Results

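The Spalt-like genes Sall1, Sall2, Sall3 and Sall4, 4 of the 24012 genes in the table, were found by their symbols and followed across tumour cells taken from mouse lungs. Sall1 was chosen because its level differed most between cells sorted for a high and a low Gstt1-mCherry signal, so its values are given as a description, with no test. The other members came in as its relatives. The cells were pancreatic ductal adenocarcinoma (PDAC) cells that had been injected into the tail vein and carried GFP and Gstt1-mCherry. Gstt1 is a glutathione transferase. All groups share 1 genotype on the labels, SIRT6F/F/p48-Cre/p53F/+KrasL/+, so the mCherryLow cells that serve for comparison carry it too. p48-Cre is expressed from a promoter of the pancreas. The DTC group was sorted by GFP with a labelled time of 5 days, and the mCherryHigh and mCherryLow groups by GFP and mCherry with a labelled time of 6 weeks. Each group has 3 libraries. Whether each library is a mouse of its own is not on the labels, and p-values here measure only the spread between libraries, which may be technical.

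Spalt-like proteins are nuclear factors with pairs of C2H2 zinc fingers that bind DNA. A short peptide at the very start of the protein recruits NuRD, a complex that removes acetyl groups from histones and remodels nucleosomes, so the family is best known for repression. Sall1 is needed for kidney formation and for microglial identity in mouse, Sall4 for early embryos and germ cells, Sall3 for cranial nerve development in mouse, and Sall2 is tied to control of cell proliferation.

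The first 36 coding bases of Sall2 and Sall4, which in Sall2-201 and Sall4-201 encode that NuRD-recruiting start, are shown to let the shared start be compared and because transcripts of Sall2 differ in it. They come from GENCODE M21 transcripts (GRCm38), read 5′ to 3′ on the transcript. Capitals mark bases that Sall2-201 and Sall4-201 share, and in Sall2-202 those that match them.
Sall2-201: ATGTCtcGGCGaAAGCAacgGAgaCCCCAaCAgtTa
Sall2-202: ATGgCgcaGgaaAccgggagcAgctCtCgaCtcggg
Sall4-201: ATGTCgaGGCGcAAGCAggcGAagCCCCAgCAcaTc
Sall2-201 and Sall4-201 had 24 of 36 bases in common. Sall2-202, which starts from another first exon, matched at 10 of those positions. The table gives 1 value per gene, so the forms of Sall2 were not told apart. The coding sequences run to 1323 codons for Sall1, 1004 for Sall2-201, 1067 for Sall4-201 and 1248 for Sall3.

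Values were CPM, reads scaled to a common library total, and whole reads were recovered from them. Library totals ran from 643748 reads in mCherryHigh 1 to 11861241 reads in mCherryLow 6, so that 3 reads, the limit a count of 0 allows, correspond to 4.66 CPM and 0.253 CPM. The labels describe the DTC libraries under their own code series, CFa14. This code, the time, the gate and the group cannot be told apart. Tumour markers were present in every group. The summed level of 10 ductal genes, among them the keratin Krt19, was 478 to 6235 CPM in DTC, 2244 to 6060 CPM in mCherryHigh and 1835 to 2637 CPM in mCherryLow, and the lowest value, 478 CPM, was that of DTC 3.

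Sall1 was highest in mCherryHigh. It was at 3.81, 9.26 and 7.58 CPM in DTC 1, 2 and 3, at 31.1, 13.0 and 36.1 CPM in mCherryHigh 1, 5 and 6, and at 0.488, 0.0939 and 0.674 CPM in mCherryLow 1, 5 and 6. The 3 groups did not overlap, with DTC between mCherryHigh and mCherryLow. For all genes tested, mCherryHigh lay wholly above mCherryLow in 10.2% and wholly below it in 5.78%, DTC wholly below mCherryHigh in 13.2%, and DTC wholly above mCherryLow in 39.0%. Behind the Sall1 levels were 5, 19 and 7 reads in DTC, 20, 127 and 353 reads in mCherryHigh, and 1, 1 and 8 reads in mCherryLow. The low values were therefore near or under the limit of 3 reads in mCherryLow 1 and 5.

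The mean of Sall1 was 26.7 ± 12.2 CPM in mCherryHigh and 0.419 ± 0.296 CPM in mCherryLow (SD, n = 3 each), a ratio of 63.8. Pooled reads gave a ratio of 60.7, with a 95% exact interval of 32.7 to 127 that covers counting error only. On the log2(CPM + 1) scale, used for all differences here, mCherryHigh exceeded mCherryLow by 4.19 (SE 0.57), the highest rank (1) of 15437 genes, which is how the gene was chosen. Since these groups do not overlap, a split by the code series of the labels had to keep their order and adds no support. In CFa10, mCherryHigh 1 was at 31.1 CPM and mCherryLow 1 at 0.488 CPM. In CFa12, mCherryHigh 5 was at 13.0 CPM, while mCherryLow 5 and 6 were at 0.0939 and 0.674 CPM. mCherryHigh 6 was alone in CFa13.

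For DTC, with a mean of 6.88 ± 2.79 CPM (SD, n = 3), the Sall1 difference was -1.77 (SE 0.62) from mCherryHigh and 2.43 (SE 0.53) from mCherryLow. Both comparisons reuse the libraries by which Sall1 was chosen and are given without a test. Over all genes the median difference was 0.55 for DTC minus mCherryHigh and 0.59 for DTC minus mCherryLow, so relative to that shift Sall1 stood at -2.31 and 1.83. With the libraries rescaled by trimmed means (TMM) the median of all genes was 0.18 and 0.06, and with quantile normalization 0.05 and -0.07. Under quantile normalization the Sall1 difference from mCherryLow shrank to 0.77.

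**Figure D1:**
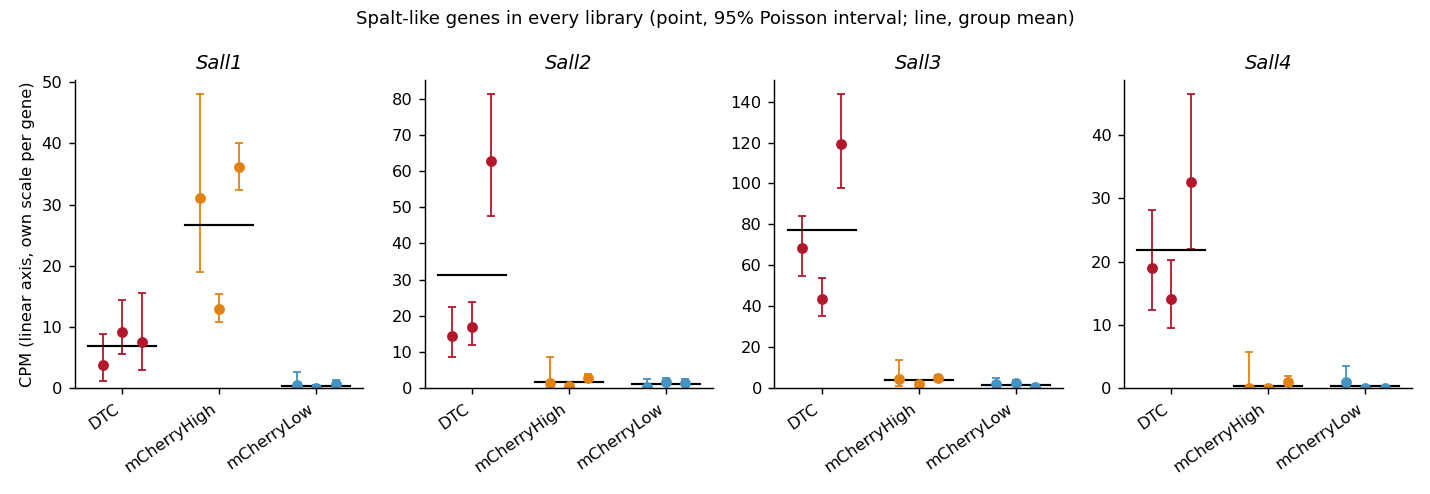
CPM of each member in every library, as points with 95% exact Poisson intervals (counting error only), and the mean of the 3 libraries of DTC, mCherryHigh and mCherryLow as a line; each gene has its own linear axis. Sall1 is highest in the 3 mCherryHigh libraries (13.0 to 36.1 CPM), whereas Sall2, Sall3 and Sall4 are highest in the 3 DTC libraries.

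Sall3, Sall4 and Sall2 followed another pattern and rose in DTC. Sall3 was at 68.5, 43.8 and 119 CPM in DTC 1, 2 and 3, against 4.66, 2.04 and 5.11 CPM in mCherryHigh 1, 5 and 6 and 1.95, 2.72 and 0.506 CPM in mCherryLow 1, 5 and 6. Every DTC library lay above every library of the other groups, and DTC 3 was the highest. In DTC 1, 2 and 3 there were 90, 90 and 110 reads of it. The difference was 4.82 from mCherryLow (SE 0.60, limma adjusted p = 0.000403) and 3.93 from mCherryHigh (SE 0.58, limma adjusted p = 0.00188), or 4.23 and 3.39 above the median of all genes. Such calls were common: limma called 34.2% of 18701 genes higher for DTC minus mCherryLow (43.1% in either direction) and 23.0% of 19700 genes for DTC minus mCherryHigh (30.2% in either direction).

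Sall4, the member of embryonic stem cells and germ cells, was at 19.0, 14.1 and 32.5 CPM in DTC 1, 2 and 3. In mCherryHigh it had 10 reads in library 6 (1.02 CPM) and was at 0 in libraries 1 and 5. By the limit of 3 reads, a count of 0 there allows up to 4.66 and 0.306 CPM. In mCherryLow Sall4 had 2 reads in library 1 (0.975 CPM) and was at 0 in libraries 5 and 6. By the same limit these allow up to 0.282 and 0.253 CPM. The DTC libraries, with 25, 29 and 30 reads, did not overlap with the others. Under the filter Sall4 entered only through the DTC libraries, where it was high, so no p of that fit is given for it. Its difference was 4.11 from mCherryLow and 4.10 from mCherryHigh. In the fit with no filter on low values, open to Sall4 whatever its level, the SE was 0.62 (limma adjusted p = 0.00154) against mCherryLow and 0.70 (limma adjusted p = 0.00359) against mCherryHigh. A non-coding gene, Gm14261, overlaps Sall4 on the other strand and holds 244 of the 5024 windows of 50 bases in its transcript. Whether strand was used in counting is not given in the sources used here, so reads of the pair cannot be told apart there.

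Sall2 was at 14.5, 17.1 and 62.8 CPM in DTC 1, 2 and 3, against 1.55, 0.612 and 2.76 CPM in mCherryHigh 1, 5 and 6 and 0.488, 1.88 and 1.60 CPM in mCherryLow 1, 5 and 6. Again the DTC libraries lay above all others, but DTC 3 was far above DTC 1 and 2. The difference was 3.55 from mCherryLow (SE 0.68, limma adjusted p = 0.00188) and 3.39 from mCherryHigh (SE 0.74, limma adjusted p = 0.00755). edgeR and DESeq2 on recovered reads also called Sall2 and Sall3 higher in both comparisons, where they called 24.4% and 27.5% of all genes higher for DTC minus mCherryLow and 15.9% and 21.2% for DTC minus mCherryHigh. Sall2 did not pass with quantile normalization, at 2.38 (limma adjusted p = 0.0672) and 2.52 (limma adjusted p = 0.0710). For Sall2, Sall3 and Sall4, the exact two-sided permutation p was 0.1 in each comparison with DTC, the smallest that 3 libraries against 3 allow. Groups did not overlap in the higher direction for 39.0% of genes in DTC minus mCherryLow and 31.4% in DTC minus mCherryHigh.

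Between mCherryHigh and mCherryLow these 3 members overlapped, unlike Sall1. Sall2 averaged 1.64 ± 1.08 CPM in mCherryHigh and 1.32 ± 0.736 CPM in mCherryLow (SD, n = 3 each), a difference of 0.16 (SE 0.50). Sall3 averaged 3.94 ± 1.66 CPM in mCherryHigh and 1.73 ± 1.13 CPM in mCherryLow (SD, n = 3 each), a difference of 0.89 (SE 0.55). Sall4 was too low in both for the filter of 1 CPM in 3 of 6 libraries and was not fitted. No test of the members is given for this contrast, since Sall1 was chosen from it and the others came in as its relatives. Over all genes the contrast yielded 0 past limma and 0 past edgeR of 15437. An unadjusted limma p was under 0.05 for 1448 genes, and an unadjusted edgeR p for 1221. Past DESeq2 were 132 (45 of them higher, 0.292%).

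**Figure D2:**
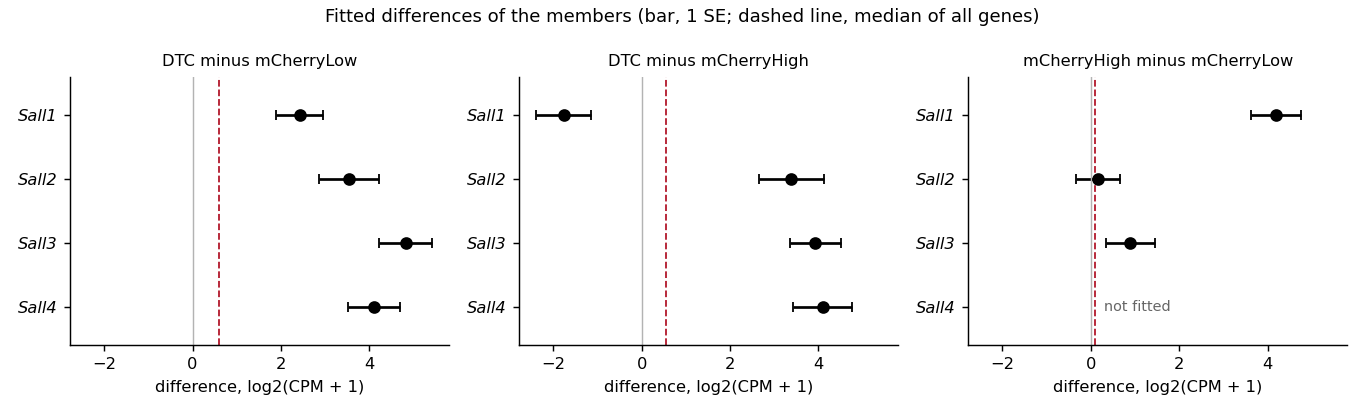
Fitted differences on the log2(CPM + 1) scale with 1 SE for DTC minus mCherryLow, DTC minus mCherryHigh and mCherryHigh minus mCherryLow; the dashed line is the median of all genes. Sall1 lies below 0 for DTC minus mCherryHigh (-1.77) where the other members lie between 3.39 and 4.10.

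Set per kb of transcript, which makes levels of different genes comparable, the order of the members turned over between groups. In mCherryHigh, Sall1 led with 2.46 to 6.86 CPM per kb, above every value of Sall3 (0.288 to 0.722), Sall2 (0.119 to 0.536) and Sall4 (0 to 0.202). Among these last, Sall2 overlapped with both Sall3 and Sall4, while Sall3 and Sall4 did not overlap. In DTC, Sall3 led with 6.19 to 16.8 CPM per kb, followed by Sall2 (2.81 to 12.2), Sall4 (2.78 to 6.40) and Sall1 (0.723 to 1.76). There Sall3, Sall2 and Sall4 overlapped as ranges, although Sall3 was first in each of the 3 libraries and Sall1 last. In mCherryLow no member passed 0.385 CPM per kb, and the ranges overlapped.

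Genes that most tissues keep silent were also higher in the DTC libraries. The 603 olfactory and vomeronasal receptor genes, read in sensory neurons, summed to 4627, 2582 and 6859 CPM in DTC 1, 2 and 3, against 1786, 137 and 265 CPM in mCherryHigh 1, 5 and 6 and 296, 217 and 104 CPM in mCherryLow 1, 5 and 6. DTC 3 was highest, as it was for Sall2, Sall3 and Sall4, and mCherryHigh 1 stood above the other 6-week libraries. Per kb, over the 480 receptors with a known length, Sall3 lay above 89.8%, 91.9% and 92.5% of receptors in DTC 1, 2 and 3. In the same libraries Sall2 lay above 60.6%, 81.3% and 87.7%, Sall4 above 68.5%, 77.9% and 73.3%, and Sall1 above 30.8%, 64.4% and 36.7% of them. All DTC values of the family were thus within the range the receptors span there.

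Relative to the receptors, Sall2 no longer set DTC apart from either other group, and Sall3 set it apart from mCherryLow only. For each 1000 CPM of receptor genes, Sall3 had 14.8, 16.98 and 17.4 CPM in DTC 1, 2 and 3, against 2.61, 14.9 and 19.3 CPM in mCherryHigh 1, 5 and 6 and 6.58, 12.5 and 4.85 CPM in mCherryLow 1, 5 and 6. On this measure the DTC libraries overlapped with mCherryHigh and lay wholly above mCherryLow. Sall2 overlapped between DTC and both other groups, at 3.13 to 9.15 CPM in DTC, 0.870 to 10.4 CPM in mCherryHigh and 1.64 to 15.3 CPM in mCherryLow. Sall4 was at 4.11 to 5.47 CPM in DTC, 0 to 3.86 CPM in mCherryHigh and 0 to 3.29 CPM in mCherryLow, and its DTC libraries did not overlap with the others. Sall1 was at 0.823, 3.58 and 1.10 CPM in DTC 1, 2 and 3, overlapping with mCherryLow. It stayed apart in mCherryHigh, with 17.4, 94.9 and 136 CPM in mCherryHigh 1, 5 and 6, against 1.64, 0.432 and 6.46 CPM in mCherryLow 1, 5 and 6. This ratio was chosen after the values were seen, and the part that the receptor signal has in the DTC results was not tested.

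**Figure D3:**
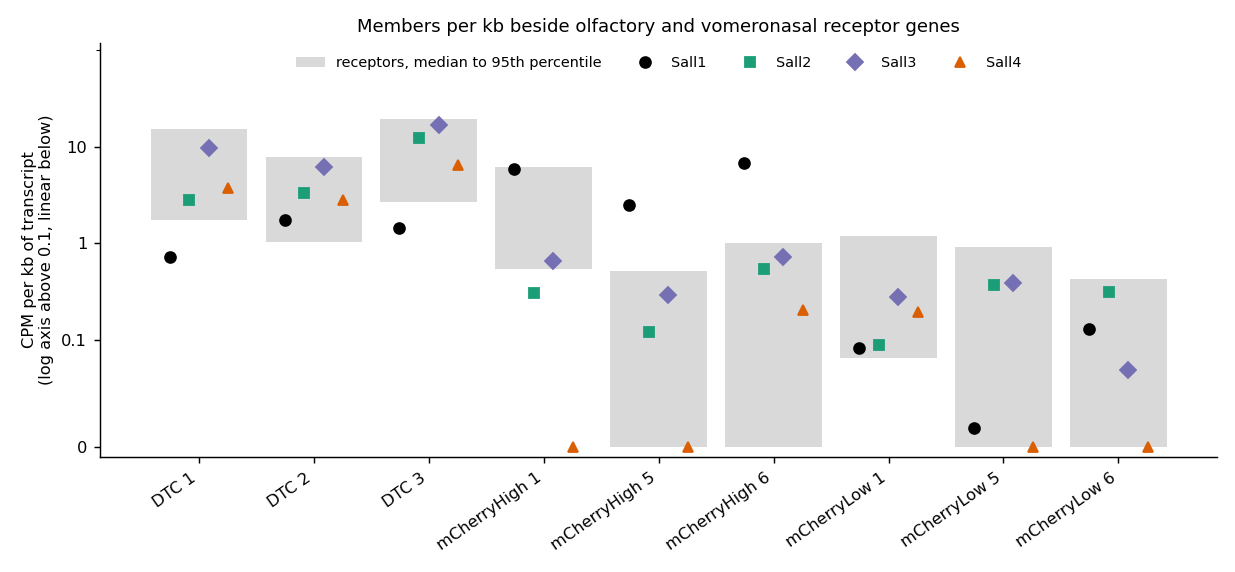
Members in CPM per kb of transcript in every library, on an axis that is logarithmic above 0.1 and linear below it; grey boxes run from the median to the 95th percentile of the olfactory and vomeronasal receptor genes in the same library. In DTC the members lie inside or under the boxes, whereas Sall1 lies above them in mCherryHigh 5 and 6.

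Markers of host lung cells were also higher in the DTC libraries. The 13 macrophage and monocyte markers summed to 3705 to 8774 CPM in DTC, 523 to 858 CPM in mCherryHigh and 509 to 866 CPM in mCherryLow. The complement gene C1qb was at 0 in all 3 mCherryHigh libraries. The 10 endothelial markers summed to 257 to 579 CPM in DTC, 34.2 to 60.6 CPM in mCherryHigh and 17.1 to 33.9 CPM in mCherryLow. For 9 markers of T, B and NK cells and leukocytes in general the sums were 125 to 351 CPM in DTC, 21.7 to 29.2 CPM in mCherryHigh, with Cd3g at 0 in all 3, and 11.04 to 28.6 CPM in mCherryLow, with Cd3e at 0 in all 3. The 11 lung epithelial markers came to 210 to 585 CPM in DTC, 87.0 to 186 CPM in mCherryHigh, with Sftpd and Lamp3 at 0, and 95.6 to 133 CPM in mCherryLow. Fibroblast and pericyte markers, 9 in number, ranged from 90.6 to 250 CPM in DTC, 154 to 189 CPM in mCherryHigh and 82.3 to 148 CPM in mCherryLow. The sums for macrophages, endothelium, leukocytes and lung epithelium did not overlap between DTC and the 6-week groups. Their part in the rise of Sall2, Sall3 and Sall4 was not tested, and in such bulk RNA a change in the number of cells and a change in RNA per cell cannot be told apart. For Sall1, the macrophage and leukocyte sums of mCherryHigh and mCherryLow overlapped, while the endothelial sums, 34.2 to 60.6 CPM in mCherryHigh and 17.1 to 33.9 CPM in mCherryLow, and the fibroblast sums, 154 to 189 CPM in mCherryHigh and 82.3 to 148 CPM in mCherryLow, did not.

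NuRD subunits, the corepressor partners of the family, were called lower in DTC more often than higher against mCherryLow, but not against mCherryHigh. Their median difference lay below that of all genes in both comparisons. Of 15 subunits tested for DTC minus mCherryLow, 5 fell and 1 rose, where 8.87% of all genes fell and 34.2% rose. Their median difference was -0.85, against 0.59 over all genes. The MTA scaffold subunit Mta2 was at 98.2, 172 and 47.6 CPM in DTC 1, 2 and 3, against 350, 376 and 279 CPM in mCherryLow 1, 5 and 6 (-1.82, SE 0.44, limma adjusted p = 0.00655). DTC lay wholly below mCherryLow for Mta2, as for 14.2% of all genes. Also lower were Mbd2, which reads methylated DNA (-1.39), the helicase Chd5 (-2.35), the zinc-finger subunit Gatad2a (-1.28) and the histone-binding subunit Rbbp7 (-1.45), all past the limma threshold. The subunit that rose was Cdk2ap1, a small protein tied to cell cycle control. With TMM scaling 8 fell and 0 rose, where 3937 of 18701 genes fell and 5185 rose. With quantile normalization 2 fell and 0 rose, where 1856 of 18701 genes fell and 2608 rose.

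Against mCherryHigh, Chd5 fell to 5.31 CPM in DTC, against 32.2 CPM in mCherryHigh (limma adjusted p = 0.0336), and Cdk2ap1 rose to 19.8 CPM in DTC, against 2.39 CPM in mCherryHigh (limma adjusted p = 0.0204). These were the only calls, 1 down and 1 up of 15, where 7.19% of all genes fell and 23.0% rose. The median difference of the subunits was -0.59, against 0.55 over all genes. With quantile normalization the call of Cdk2ap1 was lost (limma adjusted p = 0.215), and with TMM scaling Mbd2 also fell (limma adjusted p = 0.0489). TMM scaling thus gave 2 that fell and 1 that rose, where 2458 of 19700 genes fell and 3633 rose. Between mCherryHigh and mCherryLow 0 of 15 subunits passed, as did 0% of all genes, and the smallest p belonged to Mta2, at 173 CPM in mCherryHigh and 335 CPM in mCherryLow (limma adjusted p = 0.444).

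The cereblon ligase tags SALL4 for destruction in human cells treated with thalidomide. Of its 5 components, 0 rose and 1 fell for DTC minus mCherryLow, the adaptor Ddb1, at 182 CPM in DTC and 537 CPM in mCherryLow (limma adjusted p = 0.0076), where 8.87% of all genes fell. With TMM scaling 3 of 5 fell, Cul4a and Cul4b besides Ddb1, where 3937 of 18701 genes fell. Ddb1 and the scaffold Cul4b fell against mCherryHigh (-1.84 and -1.41, limma adjusted p = 0.0118 and 0.0164), and 0 of 5 rose, where 7.19% of all genes fell. Crbn itself, the substrate receptor, did not pass in either comparison. For mCherryHigh minus mCherryLow, 0 of 5 passed, as 0% of all genes did, with Cul4a at 39.1 CPM in mCherryHigh and 97.9 CPM in mCherryLow (limma adjusted p = 0.444).

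Genes that work with the family in kidney, limb and ear development included many that rose in DTC. Of 20 listed, 17 were in the table and 15 were tested. For DTC minus mCherryLow 10 rose and 0 fell, with a median of 2.39 against 0.59 over all genes, and for DTC minus mCherryHigh 7 rose and 0 fell. Of all genes 34.2% and 23.0% rose in these comparisons. A gene could enter the test through the DTC libraries alone. Quantile normalization left 4 that rose and 1 that fell against mCherryLow, and 3 that rose against mCherryHigh. Under it, 2608 of 18701 genes rose and 1856 fell against mCherryLow, and 1738 of 19700 genes rose against mCherryHigh. The limb growth factor Fgf10 was at 66.2, 22.9 and 42.2 CPM in DTC 1, 2 and 3, against 0.488, 2.54 and 0.0843 CPM in mCherryLow 1, 5 and 6 (4.52, SE 0.66). The zinc-finger repressor Zbtb16 averaged 35.7 CPM in DTC and 0.829 CPM in mCherryLow. Fgf10 and Zbtb16 passed the filter against mCherryLow through their DTC values, so no p is given for them. Gdnf, the signal for ureteric budding, averaged 30.4 CPM in DTC and 2.00 CPM in mCherryLow, and its receptor Ret averaged 18.5 CPM in DTC and 1.28 CPM in mCherryLow. Six4, a homeobox factor, averaged 123 CPM in DTC and 24.5 CPM in mCherryHigh (limma adjusted p = 0.00722). Between mCherryHigh and mCherryLow 0 of 12 passed, as 0% of all genes did. The hedgehog effector Gli1 had the smallest p, at 8.94 CPM in mCherryHigh and 2.61 CPM in mCherryLow (limma adjusted p = 0.488).

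Pluripotency and germ cell genes, which act with Sall4 in embryos, were listed with 16 names, of which 12 were in the table and 9 were tested. For DTC minus mCherryLow 6 rose and 0 fell, where 34.2% of all genes rose. A gene could enter the test through the DTC libraries alone, as Tcl1, Kit, Prdm14 and Dppa4 did, so the count is a description. For DTC minus mCherryHigh 3 of 9 rose and 0 fell, where 23.0% of all genes rose, a share not far from it. Prdm14, a germ cell regulator, averaged 21.9 CPM in DTC and 0.823 CPM in mCherryLow, and Tcl1, an AKT cofactor of stem cells, 10.6 CPM in DTC and 0.350 CPM in mCherryLow. The receptor kinase Kit rose by 3.10 and Dppa4, a gene of early embryos, by 2.27 over mCherryLow. Sox2 went the other way without passing (-1.73, limma adjusted p = 0.0672). With TMM scaling 5 rose and 1 fell against mCherryLow, where 5185 of 18701 genes rose and 3937 fell. The gene that fell was Sox2 (-2.32, limma adjusted p = 0.0217). Pou5f1, Esrrb and Zfp42 did not reach the filter for DTC minus mCherryLow. With quantile normalization 0 of 9 rose and 1 fell against mCherryLow, and 1 rose against mCherryHigh. In that setting 2608 of 18701 genes rose and 1856 fell against mCherryLow, and 1738 of 19700 genes rose against mCherryHigh. Between mCherryHigh and mCherryLow 0 of 8 passed, as 0% of all genes did, with Kit at 1.37 CPM in mCherryHigh and 0.191 CPM in mCherryLow (limma adjusted p = 0.488).

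Genes described as targets of SALL4 and SALL2 showed few calls. Of 10 tested, 1 rose and 0 fell for DTC minus mCherryLow, where 34.2% of all genes rose and 8.87% fell. With TMM scaling 0 rose and 3 fell (Bmi1, Myc and Ccne1), where 3937 of 18701 genes fell and 5185 rose. The direction of the few calls thus depended on the scaling, which also moved the calls over all genes. The gene that rose was Cdkn2a, a cell cycle inhibitor locus. It was at 10.7, 7.31 and 1.08 CPM in DTC 1, 2 and 3, against 0, 1.22 and 0.927 CPM in mCherryLow 1, 5 and 6. The 2 groups thus overlapped. Cdkn2a passed the filter through its DTC values, so no p is given for it. Its call was lost with TMM scaling and with quantile normalization. For DTC minus mCherryHigh 0 rose and 1 fell, the growth factor receptor Egfr, at 43.4, 58.0 and 49.8 CPM in DTC 1, 2 and 3, against 172, 302 and 69.7 CPM in mCherryHigh 1, 5 and 6 (limma adjusted p = 0.0333), where 7.19% of all genes fell. This call was lost with quantile normalization (limma adjusted p = 0.0750), and with TMM scaling Cdh1 fell as well (limma adjusted p = 0.0338). In mCherryLow 1, 5 and 6 Egfr was at 20.0, 45.9 and 23.4 CPM, below all mCherryHigh libraries, as 10.2% of all genes were. Between mCherryHigh and mCherryLow 0 of 9 genes passed, as 0% of all genes did (limma adjusted p = 0.444 for Egfr).

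Genes of microglia, cells that need Sall1 for their identity in mouse, were listed too. Whether each of them depends on Sall1 was not tested. Of 13, 8 rose and 1 fell for DTC minus mCherryLow, and 6 rose and 1 fell for DTC minus mCherryHigh. Of all genes 34.2% and 23.0% rose in these comparisons. With quantile normalization 5 rose and 3 fell against mCherryLow, and 4 rose and 1 fell against mCherryHigh. Over all genes that setting gave 2608 that rose and 1856 that fell of 18701 against mCherryLow. Against mCherryHigh it gave 1738 and 1237 of 19700. C1qa, C1qb and Csf1r stand on the macrophage list too. C1qa averaged 82.4 CPM in DTC and 0.194 CPM in mCherryLow, and Siglech 25.7 CPM in DTC and 0.325 CPM in mCherryLow. Both were under 1 CPM in every mCherryLow library, so the filter let them in only through DTC, and the counts are a description. Between mCherryHigh and mCherryLow 0 of 7 passed, as 0% of all genes did. Trem2, a receptor of myeloid cells, was at 20.0 CPM in mCherryHigh and 13.2 CPM in mCherryLow. P2ry12, a microglial nucleotide receptor, was at 2.81 CPM in mCherryHigh and 3.86 CPM in mCherryLow, and Tmem119 at 3.98 CPM in mCherryHigh and 4.54 CPM in mCherryLow.

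**Figure D4:**
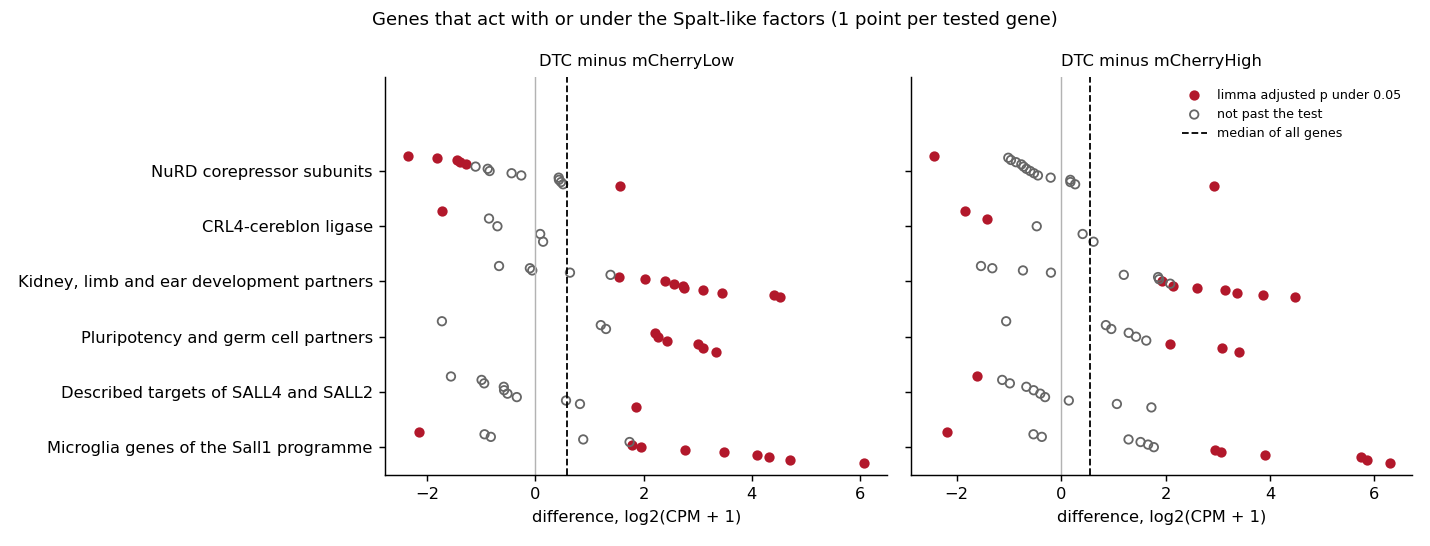
Differences on the log2(CPM + 1) scale for DTC minus mCherryLow and DTC minus mCherryHigh, 1 point per tested gene. The genes are listed partners and targets of the family and genes of microglia. Filled points passed limma at an adjusted p of 0.05, and the dashed line is the median of all genes. NuRD subunits lie mostly to the left of that line, and kidney, limb and ear genes mostly to its right.

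Ranked by Pearson's r over the 9 libraries on the log2(CPM + 1) scale, among 15596 genes, the patterns most like that of Sall1 were those of the cation channel Trpc1 (0.956), Tph2 (0.928), the zinc-finger gene Zbtb10 (0.928), Wdr16 (0.920), the DNA repair kinase Prkdc (0.919), the adenosine receptor Adora2a (0.913), Hebp2 (0.910) and Fam134b (0.906). Adora2a, for example, was at 6.85, 15.1 and 5.41 CPM in DTC 1, 2 and 3, 54.4, 18.1 and 66.0 CPM in mCherryHigh 1, 5 and 6, and 6.34, 1.03 and 4.89 CPM in mCherryLow 1, 5 and 6. Like Sall1, it was lower in mCherryHigh 5 than in mCherryHigh 1 and 6. Nearest to Sall2 were Lphn2 (0.987), Brp44l (0.985) and Cacnb4 (0.983). Sall3 had Vmn2r106 (0.997), a vomeronasal receptor gene, Tmod2 (0.995) and Cadps2 (0.994) beside it. The nearest to Sall4 were Gas7 (0.997), Itga4 (0.997) and Fcer1g (0.995), an antibody receptor subunit of leukocytes. Since the libraries fall into groups, these values describe likeness of pattern and carry no test.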

How the data were processed

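RNA from the 9 libraries was extracted with the RNAqueous-Micro kit and amplified with a SMART-seq kit before Nextera XT library preparation, per the labels' protocols. The genome build is mm9, per the submitters' processing notes. The aligner is not given in the sources used here. CPM were deposited by the authors for 24012 genes. All values (100%) were whole multiples of 1 read within 0.01 read, so reads were recovered. Genes with 1 CPM in 3 of 6 libraries entered limma (3.58.1, R 4.3.3), fitted with trend to log2(CPM + 1) computed from the deposited values, with group as the sole term. Two-sided p-values were adjusted over all genes by Benjamini-Hochberg and called at 0.05. The procedure was tested on simulated data. edgeR 4.0.16 and DESeq2 1.42.0 were run on recovered reads. Lengths came from GENCODE M21 (GRCm38), to which 94.0% of IDs matched, so no coordinates are given. Named list genes are those called, or the 4 with the smallest p. Genes most like a member exclude predicted, pseudogene and ribosomal protein genes. The members and lists were chosen with earlier results of these data known. Depth limits precision as given by the Poisson intervals. Some items are not reported here.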

Additional observations from a re-analysis of the deposited data

How the results depend on the processing

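Sall3 kept its direction and call for DTC minus mCherryLow and DTC minus mCherryHigh under every alternative run: other pseudocounts, no filter, TMM and quantile scaling, 1 fit of all 9 libraries, edgeR, DESeq2, each library left out, and thinning to the shallowest library, which was chosen after seeing the data. The differences of Sall4 kept their direction under these alternatives, but wherever the filter is used it enters only through DTC. Sall2 lost its calls with quantile normalization, at 2.38 from mCherryLow and 2.52 from mCherryHigh, and the cause was not tested. With 1 library left out, Sall2 ranged from 2.90 to 3.93 for DTC minus mCherryLow and from 2.74 to 3.77 for DTC minus mCherryHigh.

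Sall1 kept its sign throughout. For mCherryHigh minus mCherryLow it was 4.82 and 3.47 with pseudocounts of 0.5 and 2 CPM, 5.83 with edgeR and 5.88 with DESeq2. For DTC minus mCherryLow it was 2.98 and 1.83 with those pseudocounts, 0.77 with quantile normalization, 3.48 with edgeR and 3.70 with DESeq2, and for DTC minus mCherryHigh -2.65 with quantile normalization.

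Genes called numbered 8064 for DTC minus mCherryLow and 5949 for DTC minus mCherryHigh, against 4464 and 2975 with quantile normalization. Leaving out 1 library gave 3217 (without DTC 1) to 6751 genes for DTC minus mCherryHigh and 6119 to 8255 for DTC minus mCherryLow, with 3916 without DTC 3, 3547 without mCherryHigh 5 and 3854 without mCherryHigh 6 for DTC minus mCherryHigh. The share of calls that were higher was 79.4% and 76.2%, against 56.8% and 59.6% with TMM scaling and 58.4% in both with quantile normalization. DESeq2 called 132 genes for mCherryHigh minus mCherryLow, where limma called 0.

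Whether the numbers 1, 5 and 6 of mCherryHigh and mCherryLow pair the libraries is not on the labels. Deviations from the group means correlated at -0.20, -0.02 and 0.27 for equal numbers, and at -0.44 to 0.33 for unequal numbers. With 3 libraries in each group, these values cannot decide it. With the number as a replicate block, 0 genes were called and Sall1 differed by 4.19 (SE 0.59). With the code series as a term, chosen after seeing the data, it differed by 3.82. No paired analysis was possible for DTC because it shares only number 1 with the other groups.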
